A study of Bos taurus with 2 samples.

Results

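Serpins, the serine proteases of the PRSS and TMPRSS families and the small Kazal-type inhibitors named SPINK were followed in RNA from seminiferous tubules of cattle, the testis tubes that hold the developing sperm. The members were all genes whose symbol in the deposited tables began with SERPIN and a clade letter from A to I, or with PRSS, TMPRSS or SPINK, each followed by a digit. They came to 75 of 24616 genes, with 33 serpins, 22 PRSS, 13 TMPRSS and 7 SPINK genes. The rule reads symbols and no measured value, though the families were picked with earlier results of these data known. Of the 75, 50 were measured, meaning that they had at least 10 counts over both libraries. The study compared tubules at 3 months and at 9 months of age, each from 1 calf and 1 library, with 37600534 and 29782234 counts. The labels give no breed, treatment or genotype, and describe both samples as pieces of tubule taken from the removed testes and flash frozen. With 1 library per age no difference has a replicate check, each value compares these libraries and not the ages in general, and no p-value is given.

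Serpins are proteins that trap serine proteases: the protease cuts an exposed loop of the serpin, which then folds over and holds the enzyme in an inactive complex. A few serpins no longer inhibit anything and act as hormone carriers or as chaperones. PRSS genes encode mostly secreted or membrane-tethered proteases of the trypsin type, TMPRSS genes encode proteases with a membrane anchor, and SPINK proteins block trypsin-like enzymes by fitting tightly into the active site. In the testis such proteases and inhibitors are known from the acrosome, the enzyme-filled cap of the sperm head, from the sperm surface and from the moving of germ cells along the tubule wall.

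Levels within a gene are given in CPM, counts relative to a library size scaled by the TMM method, which assumes that most genes differ little, and levels of different genes are compared in RPKM, the authors' length-corrected value. Folds compare the 9-month with the 3-month library and carry a 95% exact counting interval in brackets. A gene counted as higher or lower if the fold reached 2 in that direction and its interval left out a ratio of 1. By this rule 25 members were higher in the 9-month library and 13 lower, while 12 were not called. Among all 18025 measured genes 28% were called higher and 22.8% lower. At least 16-fold higher were 14 members, against 8.62% of all measured genes, and 1 member was at least 16-fold lower, against 0.793%. The median log2 ratio of the measured members was 0.72, beside 0.02 for all measured genes. It moved with the settings, to 0.30 with a minimum of 1 count (all genes 0.10), 1.33 with a minimum of 50 counts (all genes -0.02) and 1.13 with plain library totals (all genes 0.46). The PRSS genes known from testis, a group written after the values were seen, and SPINK2 were higher at 9 months. The 4 most abundant PRSS genes of the 3-month library were lower at 9 months.

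**Figure D1:**
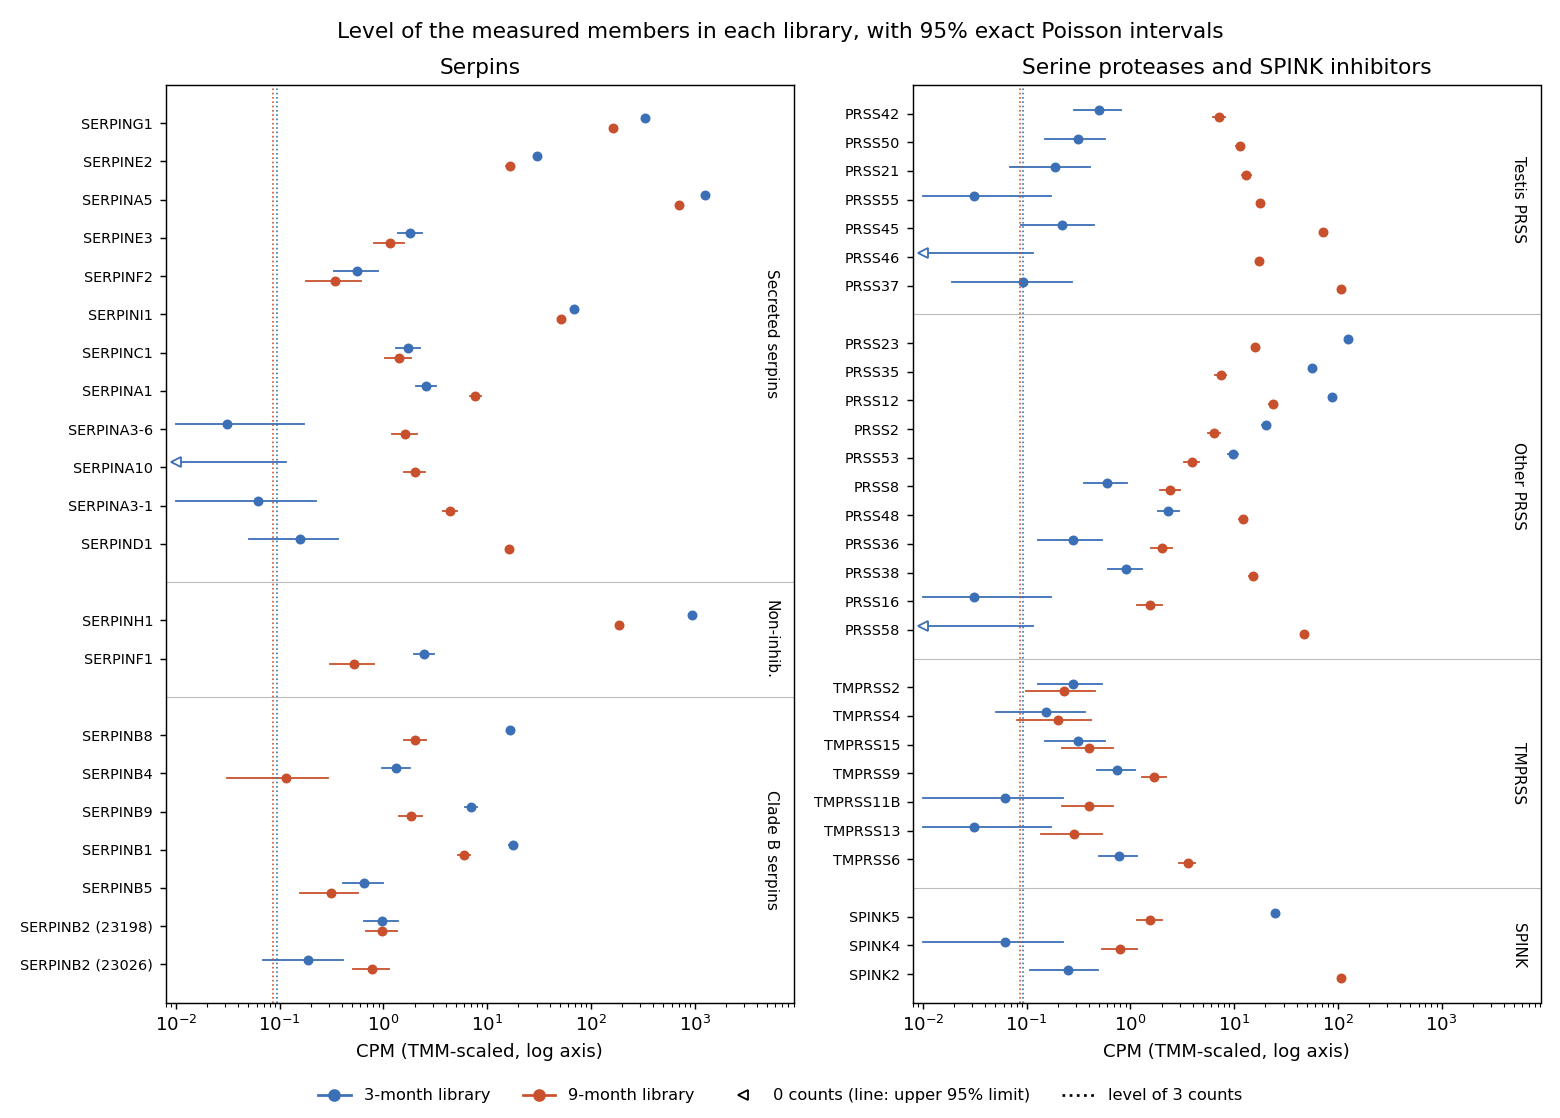
Level of the measured members, 1 of the 50 left out, on a log axis of TMM-scaled CPM, with 1 point per library (blue for 3 months, orange for 9 months) and its 95% exact Poisson interval. Open triangles mark 0 counts, dotted lines the level of 3 counts, and the SERPINB2 entries carry the last digits of their identifiers. The testis PRSS genes lie near or below 0.498 CPM at 3 months and between 7.15 and 107 CPM at 9 months.

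The label of the tissue was checked against marker genes, because the members are made by different cells. Spermatid markers were all 8 higher, with a summed level of 1.46 CPM at 3 months and 2638 CPM at 9 months, and ODF1 was at 0 counts at 3 months. Spermatocyte markers were all 7 higher, at 30.7 and 767 CPM in sum. Of 9 Sertoli cell markers 5 were lower and 2 higher, at 4106 and 896 CPM. Leydig cells lie outside the tubules, yet their 6 measured markers summed to 17511 and 2741 CPM, carried mainly by STAR, INSL3 and CYP17A1, with 5 lower and 1 higher, HSD17B3, which had only 2.43 CPM at 3 months. Of 6 fibroblast markers 3 were lower, at 3761 and 1136 CPM, of 6 endothelial markers 5 were lower and 1 higher, at 175 and 118 CPM, and of 8 leukocyte markers 4 were lower, at 475 and 203 CPM. Of 6 myoid and smooth muscle markers 2 were higher and 2 lower, at 451 and 699 CPM, and of 6 spermatogonial markers 2 were higher, at 133 and 144 CPM. For the epithelium of rete testis and epididymis, 2 of 4 measured markers were higher and 1 lower, at 7.71 and 222 CPM, with AQP9 and CRISP1 at 0 counts at 3 months and 1 count at 9 months. With plain library totals 3 endothelial, 2 leukocyte and no myoid or rete testis markers were lower, and 5 spermatogonial markers were higher. Fewer cells of a type and less RNA per cell cannot be told apart in such samples, and the part of these cell types in the results below was not tested.

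The PRSS genes known from testis, grouped from general knowledge after their values were seen, were the clearest group. Their shared direction is therefore no test of the group. All 7 were measured, all 7 were higher in the 9-month library and 6 were at least 16-fold higher. Their summed level went from 1.34 CPM at 3 months to 246 CPM at 9 months, while the spermatid markers went from 1.46 to 2638 CPM. PRSS37 (ENSBTAG00000018442), a trypsin-like protein of the sperm head that has lost its catalytic residues and is needed in mice for a sperm surface protein to mature, had 3 counts at 3 months and 3743 at 9 months. These were 0.0933 CPM at 3 months and 107 CPM at 9 months, a ratio of 1151 [394 to 5585]. By log2 ratio PRSS37 stood in place 81 from the top of 18025 genes, and in RPKM it moved from rank 17617 of 24616 genes to rank 712.

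PRSS45 (ENSBTAG00000031447), listed in the reference under the older name TESSP5 for testis-specific serine protease, had 7 and 2483 counts, or 0.218 and 71.3 CPM, and was 327-fold higher [159 to 815]. PRSS46 (ENSBTAG00000038616) had 0 counts at 3 months and 612 counts, or 17.6 CPM, at 9 months. The floor was taken as 3 counts per library (0.0933 CPM at 3 months and 0.0861 CPM at 9 months). PRSS46 was 188-fold above the 3-month floor, with a lower interval limit of 153-fold. PRSS42 (ENSBTAG00000031454), TESSP2 by its older name and known in mice for the survival of germ cells in meiosis, had 16 and 249 counts and was 14.4-fold higher [8.67 to 25.5]. PRSS50 (ENSBTAG00000005019), a testis protease also called TSP50, had 10 and 398 counts and was 36.7-fold higher [19.8 to 77.2]. These genes belong to one run of protease genes. In assembly ARS-UCD2.0 PRSS42, PRSS45 and PRSS50 follow each other in that order, with 4 other protein-coding genes between PRSS42 and PRSS45, and with a gene named PRSS46P between PRSS45 and PRSS50. Their 9-month levels differed nonetheless, with 66.01 RPKM for PRSS45 against 10.3 for PRSS50 and 6.69 for PRSS42.

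Testisin and PRSS55 are tethered to the membrane by a lipid anchor. PRSS21 (ENSBTAG00000015045), which encodes testisin, had 6 and 459 counts, or 0.187 and 13.2 CPM, and was 70.6-fold higher [32.2 to 193]. PRSS21 lies near PRSS27, PRSS22 and PRSS33 in the same assembly. Those neighbours stayed at 4 counts or fewer in each library and were not measured. PRSS55 (ENSBTAG00000034665), a protease of sperm that mice need for full fertility, went from 1 count to 623 counts, which were 0.0311 and 17.9 CPM, with a ratio of 575 [103 to 22743]. The wide interval comes from the single 3-month count.

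Among the 15 other PRSS genes 11 were measured, with 6 higher and 5 lower, so that no measured PRSS gene lay within 2-fold. Of all measured genes 28% were higher, 22.8% lower and 49.2% not called. A gene absent from the counts at 3 months led the other PRSS genes. PRSS58 (ENSBTAG00000003628), a trypsin-like gene listed in the reference under the older name TRYX3 beside TRYX2 for PRSS37, had 0 counts at 3 months and 1644 counts at 9 months. Its 9-month level was 47.2 CPM, 506-fold above the floor of 3 counts, with a lower interval limit of 411-fold. Among the 50 measured members 3 had 0 counts at 3 months, PRSS46, PRSS58 and SERPINA10, beside 2.12% of all measured genes. PRSS38, also called marapsin 2, had 29 and 530 counts and was 16.9-fold higher [11.6 to 25.4]. PRSS48 had 75 and 427 counts and was 5.25-fold higher [4.1 to 6.81]. It overlaps SH3D19 in the reference assembly, whose own log2 ratio was 0.50 against 2.36 for PRSS48, so its counts are uncertain.

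The remaining higher PRSS genes had low levels. PRSS36, a polyserase that carries several protease domains in one chain, had 9 and 70 counts and was 7.18-fold higher [3.57 to 16.3]. PRSS8, which encodes prostasin, an activator of epithelial sodium channels, had 19 and 84 counts and was 4.08-fold higher [2.46 to 7.11]. It overlaps KAT8, whose log2 ratio was 1.25 against 1.92 for PRSS8. PRSS16, a protease known from the thymus, went from 1 count to 54 counts, a ratio of 49.8 [8.57 to 2004]. Their levels at 9 months, between 1.55 and 2.41 CPM, were the lowest of the measured PRSS genes.

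The PRSS genes that led in the 3-month library were lower at 9 months. PRSS23 (ENSBTAG00000015177), a secreted protease known from ovarian follicles and other tissues, had 4073 and 559 counts, or 127 and 16.05 CPM, and was 7.9-fold lower [7.23 to 8.64]. PRSS35 (ENSBTAG00000026708), its close relative, which lacks the usual catalytic serine, had 1795 and 260 counts, or 55.8 and 7.46 CPM, and was 7.48-fold lower [6.57 to 8.55]. PRSS12 (ENSBTAG00000020705), or neurotrypsin, which cuts the matrix protein agrin, had 2855 and 820 counts, or 88.8 and 23.5 CPM, and was 3.77-fold lower [3.49 to 4.08]. The pair of relatives thus shared nearly the same fold, with intervals that overlap, while that of PRSS12 was smaller.

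PRSS2, an anionic trypsin of the digestive type, had 651 and 224 counts, or 20.3 and 6.43 CPM, and was 3.15-fold lower [2.7 to 3.68]. Trypsin genes resemble each other closely, so the counts of PRSS2 are uncertain. PRSS53, also called polyserase 3, had 313 and 136 counts and was 2.49-fold lower [2.03 to 3.07], but with plain library totals the ratio was 0.549 and the call was lost. It overlaps ZNF646, which moved the other way with a log2 ratio of 3.48.

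The leading genes of the PRSS family by RPKM thus differed between the libraries. At 3 months PRSS23, PRSS12, PRSS2 and PRSS35 made up 94.2% of the summed RPKM of the 22 genes, and at 9 months 8.41%. PRSS37, PRSS45 and PRSS58 made up 0.171% at 3 months and 64.4% at 9 months. Each set was picked for its level in 1 library, a choice that favours a smaller share in the other library. The family's summed RPKM was 137 at 3 months and 391 at 9 months. The 7 testis genes accounted for 0.974 and 275 RPKM of it, and the 15 others for 136 and 115. These RPKM sums carry no TMM scaling. In TMM-scaled CPM the 7 testis genes summed to 1.34 and 246, and the 15 others to 306 and 138.

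**Figure D2:**
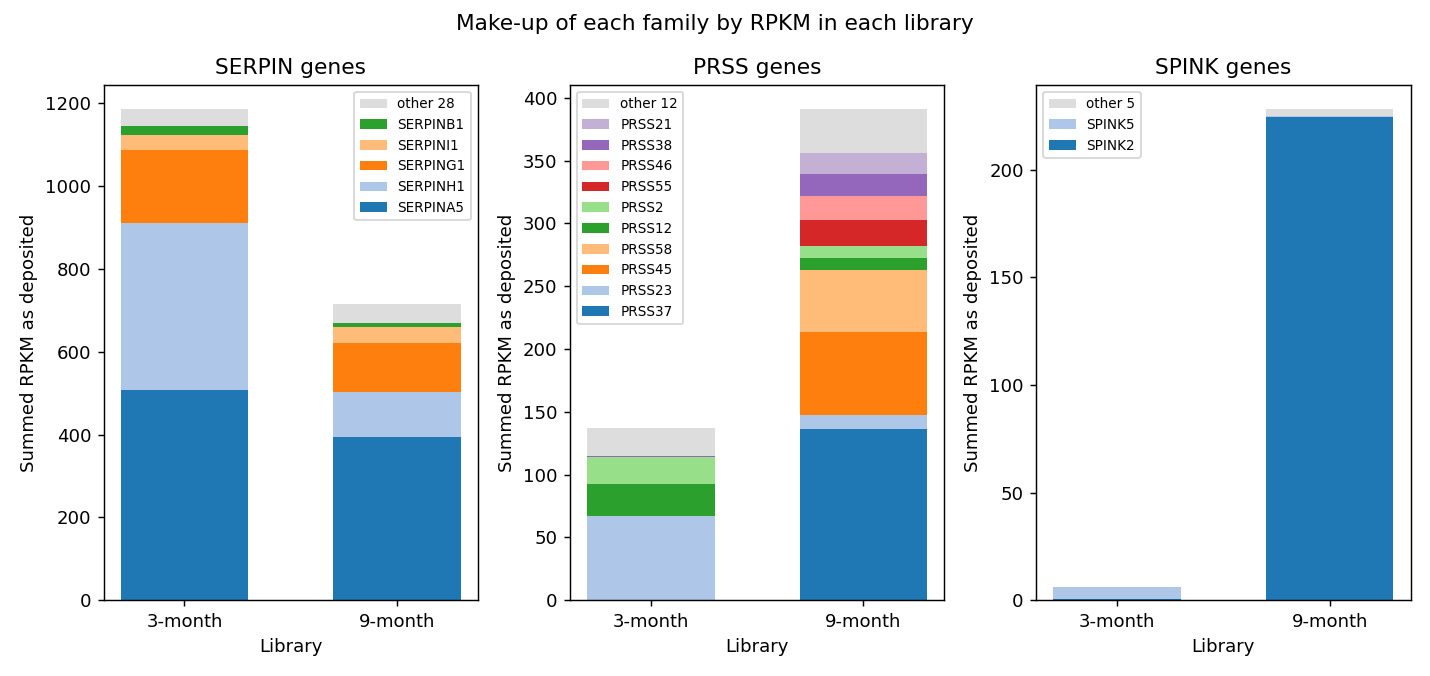
Summed RPKM, as deposited and without TMM scaling, of the SERPIN, PRSS and SPINK genes in each library. Bars are stacked from 0, with 1 colour per gene and grey for the remaining genes of the family. The PRSS bar goes from 137 to 391 RPKM with different leading genes, the SERPIN bar keeps its leading 3 genes and the SPINK bar at 9 months is nearly all SPINK2.

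The SPINK genes, inhibitors of trypsin-like enzymes, showed the same exchange in small. SPINK2 (ENSBTAG00000032560), the inhibitor of acrosin and other trypsin-like enzymes in the forming acrosome, had 8 and 3768 counts, or 0.249 and 108 CPM, and was 435-fold higher [220.3 to 1007]. It reached rank 363 of 24616 genes by RPKM at 9 months, with 224 RPKM, and made up 98.4% of the RPKM of the 7 SPINK genes. The reference table holds SPINK2 only as an older name of a gene now called SPINK2B. Any close copy could share its reads. ACR, the acrosin gene, had 4 and 2252 counts, so that its ratio of 519.5 [203 to 1908] and that of SPINK2 have overlapping intervals. SPINK5 (ENSBTAG00000019140), a protein of many inhibitor domains known from skin, went the other way, with 800 and 54 counts, or 24.9 and 1.55 CPM, and was 16.1-fold lower [12.2 to 21.6]. It was the only member at least 16-fold lower and stood in place 102 from the bottom of 18025 genes. SPINK4 went from 2 to 28 counts, a ratio of 12.9 [3.26 to 112]. The other 4 SPINK genes had at most 6 counts in either library. SPINK4 falls below a minimum of 50 counts, which leaves 1 SPINK gene higher in place of 2.

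Serpins were spread to both sides. Of 33 serpins 22 were measured, with 6 higher, 7 lower and 9 not called, and a median log2 ratio of -0.67. That is 27.3% higher and 31.8% lower, beside 28% and 22.8% of all measured genes. The summed RPKM of the family, without TMM scaling, was 1185 at 3 months and 714 at 9 months. In TMM-scaled CPM the sums were 2696 and 1184. SERPINA5, SERPINH1 and SERPING1 held 91.8% of the RPKM at 3 months and 87.1% at 9 months, so the same 3 genes led at both ages.

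SERPINA5 (ENSBTAG00000004063), the protein C inhibitor, which also blocks acrosin and plasminogen activators and which male mice need for sperm production, was the most abundant member in both libraries. It had 40523 and 24863 counts, or 1261 and 714 CPM. The 9-month value was 1.77-fold lower [1.74 to 1.79] and the gene was not called. Its level of 508 RPKM ranked 263 of 24616 genes at 3 months, and 394 RPKM ranked 168 at 9 months. Among the serpins its share of the RPKM was 42.9% and 55.1%. Its neighbours in the run of clade A genes had far lower levels. SERPINA10, SERPINA6, SERPINA1, SERPINA11, SERPINA12, SERPINA4 and SERPINA5 lie in that order, and of the other 6 SERPINA1 had the highest level, 7.66 CPM at 9 months.

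SERPINH1 (ENSBTAG00000001027), or HSP47, is the collagen chaperone of the endoplasmic reticulum and inhibits no protease. It had 30430 and 6533 counts, or 947 and 188 CPM, and was 5.05-fold lower [4.91 to 5.19]. Its partners in collagen folding were listed as a group of 19 genes, of which 18 were measured, and 16 of them were lower, none was higher and 2 were not called, with a median log2 ratio of -2.19 against -2.34 for SERPINH1. COL4A1, a collagen of basement membranes, was 10.2-fold lower [9.999 to 10.5], the prolyl isomerase FKBP14 7.83-fold lower [6.91 to 8.9], and P4HA2, a proline hydroxylase subunit, 5.74-fold lower [5.31 to 6.21]. Nearly the whole list lay on the side of SERPINH1, beside 22.8% lower and 28% higher of all measured genes. The lysine hydroxylases PLOD3 and PLOD1 were 5.69-fold lower [5.24 to 6.18] and 5.6-fold lower [5.3 to 5.93], and COL6A1, a microfibrillar collagen, 5.54-fold lower [5.41 to 5.68]. SERPINF1, the pigment epithelium-derived factor, another serpin that inhibits no protease, had 80 and 18 counts and was 4.82-fold lower [2.86 to 8.54]. It overlaps SMYD4, whose log2 ratio was 0.79. The hormone carriers SERPINA6 and SERPINA7 had at most 4 counts in either library.

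SERPING1 (ENSBTAG00000016267), the C1 inhibitor, which restrains complement and plasma kallikrein, had 10634 and 5706 counts, or 331 and 164 CPM. It was 2.02-fold lower [1.96 to 2.09], just past the 2-fold line, and the call was lost with plain library totals, where the ratio was 0.677, and with DESeq2 size factors, where it was 0.504. SERPINI1 (ENSBTAG00000012708), or neuroserpin, an inhibitor of tissue plasminogen activator, had 2199 and 1797 counts, or 68.4 and 51.6 CPM, and was not called. Its ratio turned from 0.754 to 1.03 with plain library totals. SERPINE2, or protease nexin 1, which inhibits thrombin and plasminogen activators, had 970 and 575 counts, or 30.2 and 16.5 CPM, and was not called at 1.83-fold lower [1.65 to 2.03]. SERPINE2 and SERPINI1, which both act on plasminogen activators, thus had measured ratios within 2-fold. SERPINC1, antithrombin, fell outside the rule for named genes and is given here after its values were seen. It had 56 and 49 counts and was not called. SERPINE3, SERPINF2 and SERPINB5, also outside the rule, had between 11 and 58 counts per library and were not called. SERPINE3 overlaps INTS6 in the reference assembly, whose log2 ratio was 1.37.

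The secreted serpins that were higher at 9 months were rare at 3 months. SERPIND1 (ENSBTAG00000013973), heparin cofactor II, a thrombin inhibitor, had 5 and 572 counts, or 0.156 and 16.4 CPM, and was 106-fold higher [44.97 to 326]. It overlaps PI4KA in the reference assembly, whose log2 ratio was 1.51 against 6.26 for SERPIND1. SERPINA1, alpha-1 antitrypsin, which protects tissue from neutrophil elastase, had 83 and 267 counts, or 2.58 and 7.66 CPM, and was 2.97-fold higher [2.31 to 3.84]. SERPINA10, the inhibitor of coagulation factor Xa that depends on protein Z, had 0 and 70 counts. It was 21.5-fold above the floor of 3 counts, with a lower interval limit of 17.1-fold. SERPINA3-1 and SERPINA3-6 are closely related bovine copies of the antichymotrypsin gene, so reads may have been shared between them or with further copies. They had 2 and 153 counts and 1 and 56 counts, ratios of 70.6 [19.2 to 588] and 51.7 [8.9 to 2077]. Plasma serpins are made mainly by the liver, and of 7 hepatocyte markers 5 were measured. With 1980 CPM at 3 months and 392 CPM at 9 months in sum, nearly all of it APOA1 and TF, 3 of them were lower, among them ALB with 65 and 11 counts, and 1 was higher, FGA with 0 and 26 counts. Their part in the serpin values was not tested.

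Clade B serpins stay inside the cell and guard against stray proteases. Of 12 such genes 7 were measured, with 4 lower, 1 higher and 2 not called, beside 22.8% lower and 28% higher of all measured genes. SERPINB8 (ENSBTAG00000001207), which inhibits furin, had 540 and 71 counts, or 16.8 and 2.04 CPM, and was 8.24-fold lower [6.43 to 10.7]. SERPINB1, an inhibitor of neutrophil proteases, had 567 and 210 counts and was 2.93-fold lower [2.49 to 3.44]. SERPINB9, its neighbour in the reference assembly and the inhibitor of granzyme B, had 227 and 64 counts and was 3.84-fold lower [2.9 to 5.16]. SERPINB4 had 43 and 4 counts and was 11.6-fold lower [4.23 to 44.7]. By listed position ADAM1B and ULBP27, with log2 ratios of 8.11 and -0.29, overlap SERPINB4 in the reference, where it lies in no run of clade B genes. Whether that overlap is real was not tested, and the counts of SERPINB4 are uncertain. SERPINB2, the inhibitor PAI-2, is listed under 2 identifiers. One (ENSBTAG00000023198) had 31 and 34 counts and was not called, and the other (ENSBTAG00000023026) had 6 and 27 counts and was 4.15-fold higher [1.68 to 12.3]. The division of reads between them is uncertain. Lower were also 4 of 8 leukocyte, 5 of 9 Sertoli, 5 of 6 Leydig and 5 of 6 endothelial markers, with 0, 2, 1 and 1 higher. Which cells made these serpins was not tested.

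TMPRSS genes were at low levels throughout. Of 13 genes 7 were measured, with 4 higher, 3 not called and none lower, beside 28% higher and 22.8% lower of all measured genes. The summed level of the 13 TMPRSS genes was 2.43 CPM at 3 months and 6.95 CPM at 9 months. TMPRSS6, or matriptase-2, which controls the iron hormone hepcidin in liver, was the highest of them, with 25 and 124 counts, and was 4.58-fold higher [2.96 to 7.34]. TMPRSS11B and TMPRSS13 went from 2 to 14 counts and from 1 to 10, ratios of 6.46 [1.48 to 58.6] and 9.23 [1.31 to 400.5]. The other 4 measured TMPRSS genes had between 5 and 59 counts per library, and of these TMPRSS9, named after its values were seen, was called higher. With a minimum of 50 counts 2 of the 4 higher TMPRSS genes were left, TMPRSS6 and TMPRSS9. Of the 25 members that were not measured, none had more than 8 counts in a library. SPINK6, SPINK8, TMPRSS3, TMPRSS5 and TMPRSS11D were at 0 counts in both libraries, which allows up to 0.0933 CPM at 3 months and 0.0861 CPM at 9 months. These limits, like the brackets, cover counting error only.

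**Figure D3:**
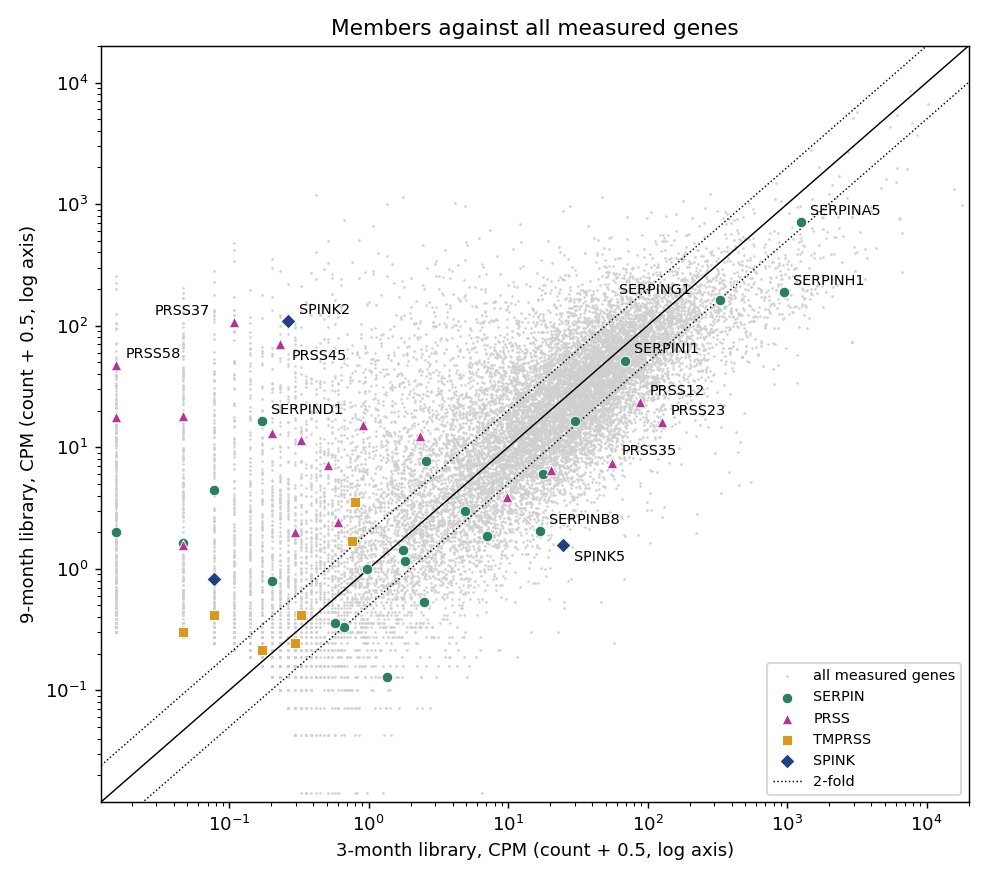
CPM of every measured gene (grey) and of the members (coloured by family) in the 3-month library (x axis) and the 9-month library (y axis), both log axes of count plus 0.5 scaled by TMM. Members above the upper dotted line are more than 2-fold higher at 9 months. PRSS37, PRSS45, PRSS58 and SPINK2 lie at the upper left, and SERPINA5 and SERPINH1 at the upper right below the diagonal.

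The proteases that serpins act on, with their receptors, were examined as a list of 25 symbols, with 24 measured genes. Of these 7 were lower, 4 higher and 13 not called, with a median log2 ratio of -0.50. That is 16.7% higher and 29.2% lower, beside 28% and 22.8% of all measured genes. With plain library totals 5 were lower and 6 higher. PLAT, the tissue plasminogen activator, stood at 212 and 99.1 CPM and was 2.14-fold lower [2.06 to 2.24], but with plain library totals the ratio was 0.638 and the call was lost. PLAU, the urokinase, had 132 and 126 counts and was not called under either scaling. PLG, plasminogen itself, had only 4 and 10 counts. F10 and THBD, coagulation factor X and the thrombin receptor thrombomodulin, were 11.1-fold lower [9.63 to 12.9] and 6.85-fold lower [6.38 to 7.36], and MASP1, a protease of the complement lectin pathway, was 4.67-fold lower [4.21 to 5.19]. In contrast F2, the prothrombin gene, went from 27 to 1929 counts, or 0.84 and 55.4 CPM, and was 65.9-fold higher [45.2 to 100.3]. F7, coagulation factor VII, went from 0 to 265 counts. It was 81.5-fold above the floor of 3 counts, with a lower interval limit of 65.8-fold. LRP2, an endocytic receptor, was 4.19-fold higher [3.26 to 5.44]. The thrombin gene and its inhibitor SERPIND1 were thus both higher at 9 months, while the thrombin inhibitors SERPINC1 and SERPINE2 were not called.

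Other trypsin-like proteases went both ways. Of 30 measured genes 9 were lower, 6 higher and 15 not called, with a median log2 ratio of -0.52. That is 20% higher and 30% lower, beside 28% and 22.8% of all measured genes. KLK1, tissue kallikrein, which SERPINA5 can inhibit, stood at 381 and 6.23 CPM and was 61.1-fold lower [53.5 to 70.2]. CORIN, which activates a heart hormone, was 10.3-fold lower [8.32 to 12.8], KLK4, a kallikrein-related protease, 4.87-fold lower [3.77 to 6.36], and the secreted proteases HTRA3 and HTRA1 7.01-fold lower [5.11 to 9.82] and 4.61-fold lower [4.29 to 4.97]. Of 9 genes listed as proprotein convertases, among them the peptidase TPP2, 4 were higher, 4 lower and 1 not called. That is 44.4% each way, beside the 28% and 22.8% of all measured genes. PCSK4, the convertase of sperm, stood at 21.9 and 139 CPM and was 6.36-fold higher [5.87 to 6.89], PCSK6 was 9.16-fold higher [6.71 to 12.8] and PCSK5 6.68-fold higher [5.56 to 8.07], while PCSK1 was 4.36-fold lower [3.41 to 5.63]. The convertases thus did not share a direction. MBTPS1, the protease that activates regulators of sterol synthesis, was 3.32-fold lower [3.18 to 3.47], and the peptidase TPP2 4.1-fold higher [3.89 to 4.33].

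Inhibitors of other families were divided much like the serpins, and not far from all measured genes. Of 32 measured genes 9 were lower, 8 higher and 15 not called, with a median log2 ratio of -0.63. The shares were 25% higher and 28.1% lower, beside 28% and 22.8% of all measured genes. With plain library totals 6 were lower and 10 higher. WFDC3, a protein with whey-acidic-protein domains, stood at 3.58 and 78.3 CPM and was 21.9-fold higher [18.2 to 26.6]. CSTL1, a cystatin-like gene, had 0 and 380 counts, 117-fold above the floor of 3 counts, with a lower 95% limit of 94.6-fold. SPOCK1, a proteoglycan with an inhibitor domain, was 6.99-fold higher [5.25 to 9.46]. PI15, a secreted peptidase inhibitor, was 5.44-fold lower [4.47 to 6.66]. CST6, cystatin M, is listed under 2 identifiers, which were 11.1-fold lower [9.20 to 13.5] and 5.09-fold lower [4.64 to 5.59].

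Proteins of the acrosome and of the sperm surface formed the last list, since several testis PRSS proteins act with them. Of 18 measured genes 17 were higher and 1 was lower, and the median log2 ratio was 5.90. With genes at 0 counts set at the floor of 3 counts the median was 5.84. ADAM2, a sperm surface protein, was 1906-fold higher [875 to 5195], CRISP2, a cysteine-rich protein of the acrosome, 989.6-fold higher [578 to 1859], and TEX101, a surface protein of germ cells, 222-fold higher [120.4 to 463]. PDILT, a testis chaperone for sperm surface proteins, went from 2 to 2107 counts, a ratio of 972 [269 to 8032]. SPACA3 and SPACA4, proteins of the acrosome, had 0 counts at 3 months and were 141-fold and 159-fold above the floor of 3 counts. The exception was TPST2, a tyrosine sulfotransferase, named after its value was seen, which had 1093 and 270 counts. The lists of the acrosome and sperm surface and of collagen folding were thus the most one-sided of the 6. All 6 were chosen with earlier results of these data known, so this ranking is no test. Among all measured genes 28% were higher and 22.8% lower.

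**Figure D4:**
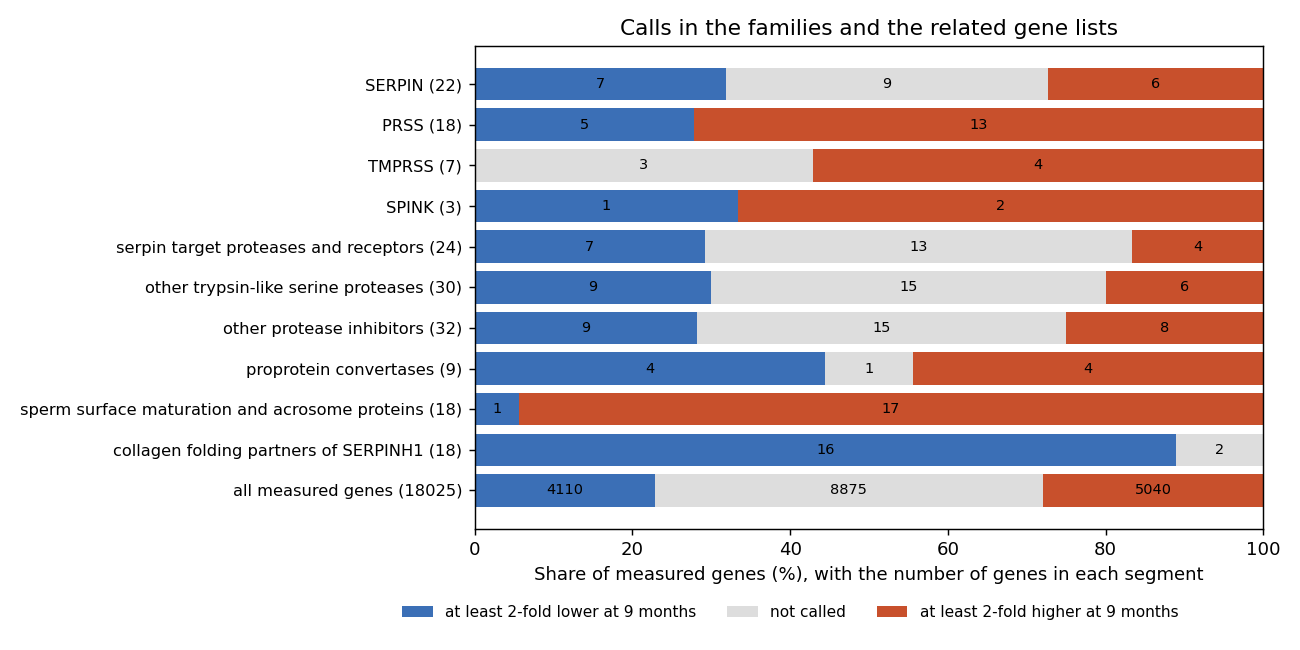
Share of measured genes called lower (blue), not called (grey) and called higher (orange) at 9 months in each family and related list, with the number of measured genes in brackets and the number in each segment. All measured genes are at the bottom. PRSS genes have no grey segment, sperm surface and acrosome genes are 17 of 18 higher and collagen folding genes 16 of 18 lower.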

How the data were processed

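RNA from seminiferous tubules of 2 calves was sequenced, with 1 library per age. Per the submitters' processing notes, Trimmomatic 0.33, STAR 2.4.0 and the bovine build UMD3.1 were used. How reads were counted, with which annotation and strand setting, and how reads with several alignments were treated is not given in the sources used here. The deposited tables have no header, and units were worked out from the values. One column holds raw counts per gene as deposited by the authors, one the gene length, and one the authors' RPKM, which equals counts per kilobase relative to the table's total to within 0.000496%. Columns of other samples numbered 0. From the counts, TMM factors (0.855 and 1.17, from genes with at least 10 counts) were computed in edgeR 4.0.16 under R 4.3.3. Log2 ratios carry a prior count of 2. Intervals of ratios are exact (conditional binomial, Clopper-Pearson, 95%), computed with Python 3.11.15 and scipy 1.17.1, and cover counting error only. PCR copies are not independent molecules. The calls were tested on simulated data with counting error alone. The members and lists were chosen with earlier results of these data known, and the grouping of members by role was written from general knowledge after their values were seen.

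Named members had at least 10 counts and either at least 5 CPM in a library or an at least 4-fold ratio. From each of 6 related lists up to 6 genes with the largest log2 ratios and at least 5 CPM were named, and ACR, PLAT, PLAU, PLG and F2 in any case. The members of 11 marker lists served as a check of the tissue. Alternatives were plain library totals, upper-quartile scaling, DESeq2 1.42.0 size factors, minima of 1 and 50 counts and prior counts of 0.5 and 10. Of 74 distinct member symbols 69 were found in the RefSeq gene table of assembly ARS-UCD2.0, which was used only for names, order and overlap of genes. Its build differs from that of the files, so no coordinates are given. Sequences were not used here. The counts over members include 1 gene that is not reported here by name or value.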

Additional observations from a re-analysis of the deposited data

How the results depend on the processing

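The numbers of all members called higher and lower stayed within 1.5 times of their values under the scalings and count minima tried, but with a minimum of 50 counts the higher TMPRSS genes fell from 4 to 2 and the higher SPINK genes from 2 to 1. With plain library totals, upper-quartile scaling and DESeq2 size factors 25 members were higher each time, and 11, 14 and 12 were lower. Among all measured genes the share of higher among called genes was 55.1% with TMM and 71.2% with plain library totals, and among members 65.8% and 69.4%. Relative to TMM, plain library totals shifted every log2 ratio by 0.45, upper-quartile scaling by -0.10 and DESeq2 size factors by 0.03. The median log2 ratio of the measured members, 0.72, was 1.13 with plain library totals, where that of all genes was 0.46. It was 0.30 with a minimum of 1 count, 1.33 with a minimum of 50 counts and 0.51 with a prior count of 10. Of 120 comparisons of a member's ratio (40 members, 3 other scalings) 116 kept direction and call. Count minima cannot change a ratio, and the minimum of 50 counts removed 5 of the 40. The exceptions under plain library totals were SERPINI1, whose ratio turned to 1.03, and SERPING1 and PRSS53, whose calls were lost at 0.677 and 0.549. SERPING1 also lost its call at 0.504 with DESeq2 size factors. Among 39 genes named from the related lists, a check chosen after seeing the data, 115 of 117 comparisons with another scaling kept direction and call, and with plain library totals PLAT lost its call at 0.638 and PLAU turned to 1.205. No paired analysis was possible because each age has 1 library, and for the same reason no library could be left out. Depth limits the members near the floor of 3 counts: ratios that rest on 1 to 3 counts at 3 months have intervals that span more than 10-fold.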
